A study of Mus musculus with 18 samples.

Results

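Potassium channel genes are described here in the substantia nigra and striatum of mice injected with 6-hydroxydopamine (6-OHDA) or phosphate-buffered saline (PBS) and treated with TUG469 or PBS. The family was taken as every protein-coding gene whose symbol begins with Kcn, with Kcnj8, Kcnj13 and Kcne2 left out, a rule that uses no measured value. It gave 80 of the 20897 genes listed for nigra and 78 of the 20257 genes listed for striatum, and all 78 striatal members were also listed for nigra. Kcnk7 and Kcnrg were listed for nigra alone, at means of 0.279 and 0.575 TPM (a level scaled to library size and corrected for transcript length) over the 9 nigral libraries. Each deposited list holds genes with at least 1 read in each of its 9 libraries. All 80 and 78 members passed the filter on low counts.

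Potassium channels let potassium cross the membrane and so set the resting potential, end the action potential and pace repeated firing. Pore-forming subunits open with voltage (Kv channels) or with internal calcium or sodium, conduct best inward at negative potentials (Kir channels), or carry leak currents (K2P channels). Auxiliary subunits such as the Kv beta proteins, the KChIPs, the KCNE proteins and the BK beta proteins change where the pores go and how they gate, and silent Kv subunits form channels only together with Kv2 pores. In the basal ganglia, striatal projection neurons are known for strong inward rectifier and A-type currents, fast-spiking neurons for Kv3 channels, and nigral dopamine neurons for GIRK2, SK3, Kv4.3 and KATP channels.

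RNA was sequenced from the substantia nigra and striatum of wild-type C57BL6 mice, in 3 groups of 3 libraries per tissue and 18 libraries in all. The first group received 4 μg of 6-OHDA, a toxin taken up by catecholamine neurons, into the striatum, and 10 mg/kg per day of TUG469, an agonist of the fatty acid receptor GPR40, by intraperitoneal injection. The second received the same 6-OHDA with PBS injections, and the third received PBS into the striatum with PBS injections. The time given for all groups is 3 weeks. The labels give neither age nor sex, and do not say that libraries came from separate animals, so p-values measure the spread between these libraries, which may in part be technical.

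Gene counts per library totalled 51665747 to 61933756 in nigra and 42242389 to 61992226 in striatum. Projection neuron markers separated the tissues: 9 such genes summed to 225 to 367 TPM in nigra and to 5721 to 9004 TPM in striatum. Dopamine neuron markers did not follow the 6-OHDA label. In nigra, 8 of them summed to 191 to 316 TPM in the TUG469 plus 6-OHDA libraries, 385 to 532 TPM in the libraries labelled 6-OHDA, and 350 to 381 TPM in the PBS libraries. Markers of neighbouring tissue varied between libraries. A list of 5 cortical excitatory neuron genes summed to 82.3 TPM in striatal TUG469 plus 6-OHDA replicate 2, 31.2 TPM in 6-OHDA replicate 4 and 24.2 TPM in PBS replicate 2, against 242 to 578 TPM in the other striatal libraries. In nigra that list reached 87.2 TPM in TUG469 plus 6-OHDA replicate 4, 139 TPM in 6-OHDA replicate 3, and 75.5 and 88.7 TPM in PBS replicates 1 and 3, against 13.2 to 36.4 TPM in the others. A list of 5 genes named for thalamic neurons (Tcf7l2, Prkcd, Calb2, Lef1 and Slc17a6) summed to 565 to 989 TPM in nigra. In striatum it summed to 18.4 to 36.7 TPM. How much of the nigral sum came from cells of the nigra itself was not tested. Choroid plexus genes summed to 3245 TPM in striatal 6-OHDA replicate 2, against 13.0 to 291 TPM in the other striatal libraries. As these are bulk samples, fewer cells of a type and less RNA per cell cannot be told apart.

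The promoters of 5 members are shown because their transcripts carry the main differences below: Kcnj4 and Kcnh4 were far lower in nigra than in striatum, Kcng4 and Kcnj5 were far higher, and Kcnd3 was the member that passed a test between treatments. The first 4 are the members at 1 TPM or more with the largest differences each way among those with a single RefSeq promoter entry. Each sequence runs from 250 bases before to 50 bases after a RefSeq transcript start (build GRCm38.p6), 5′ to 3′ on the gene's strand, with the GC box GGGCGG, on either strand, in capitals. The windows are chr15:79505192-79505491 (minus strand) for Kcnj4, chr11:100759729-100760028 (minus strand) for Kcnh4, chr8:119635631-119635930 (minus strand) for Kcng4, chr9:32344295-32344594 (minus strand) for Kcnj5 and chr3:105451640-105451939 (plus strand) for Kcnd3.
Kcnj4: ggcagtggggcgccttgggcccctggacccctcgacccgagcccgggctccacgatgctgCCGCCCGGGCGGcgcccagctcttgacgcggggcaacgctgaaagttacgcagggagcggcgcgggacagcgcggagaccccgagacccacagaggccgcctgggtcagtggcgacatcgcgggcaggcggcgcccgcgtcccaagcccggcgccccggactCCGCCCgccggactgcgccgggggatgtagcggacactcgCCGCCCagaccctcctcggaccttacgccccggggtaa
Kcnh4: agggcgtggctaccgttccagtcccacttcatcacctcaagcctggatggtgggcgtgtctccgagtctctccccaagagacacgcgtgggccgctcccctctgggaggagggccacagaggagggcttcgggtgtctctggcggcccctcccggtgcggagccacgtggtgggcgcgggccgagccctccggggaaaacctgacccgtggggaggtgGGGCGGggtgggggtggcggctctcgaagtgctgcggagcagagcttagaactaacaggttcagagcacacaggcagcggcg
Kcng4: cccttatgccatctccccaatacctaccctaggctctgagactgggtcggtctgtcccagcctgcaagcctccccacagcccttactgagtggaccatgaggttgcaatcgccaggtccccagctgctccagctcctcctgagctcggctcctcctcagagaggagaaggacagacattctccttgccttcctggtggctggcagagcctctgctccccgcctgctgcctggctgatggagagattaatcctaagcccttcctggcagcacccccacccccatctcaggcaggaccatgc
Kcnj5: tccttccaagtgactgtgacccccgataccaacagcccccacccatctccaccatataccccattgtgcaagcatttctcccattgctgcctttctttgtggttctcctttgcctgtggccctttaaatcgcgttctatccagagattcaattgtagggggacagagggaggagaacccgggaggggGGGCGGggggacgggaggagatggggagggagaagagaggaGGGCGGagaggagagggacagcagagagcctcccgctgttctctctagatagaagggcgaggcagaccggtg
Kcnd3: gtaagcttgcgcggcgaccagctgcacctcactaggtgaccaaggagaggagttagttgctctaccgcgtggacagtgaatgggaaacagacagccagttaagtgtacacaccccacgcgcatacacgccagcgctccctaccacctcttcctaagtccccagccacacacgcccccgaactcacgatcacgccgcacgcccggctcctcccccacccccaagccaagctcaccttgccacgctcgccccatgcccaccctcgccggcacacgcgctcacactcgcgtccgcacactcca

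The GC box matched 4 times in the Kcnj4 window, 1 time in Kcnh4 and 2 times in Kcnj5, and did not match in Kcng4 or Kcnd3. CpG dinucleotides numbered 41 in Kcnj4, 23 in Kcnh4, 4 in Kcng4, 10 in Kcnj5 and 25 in Kcnd3. Across the 80 promoter entries of 57 members, 52.5% held a GC box and the median was 10 CpG dinucleotides. Across all 32851 mouse entries of the same length, 35.7% held one and the median was 7. The motif TATAAA, on either strand, was in 3.75% of the members' entries and in 13.6% of all entries, and the motif CCAAT was in 31.2% and 37.4%. These matches describe letters in the windows and show no binding.

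The family was expressed at a similar summed level in both tissues, carried by different members. Summed over members, transcripts reached 2459 to 2818 TPM per library in nigra and 2685 to 3167 TPM in striatum. Means of at least 10 TPM over the 9 libraries of a tissue were reached by 39 members in nigra and 45 in striatum, and means under 1 TPM were found for 5 members in nigra and 8 in striatum. The 5 highest members held 34.6% of the family's TPM in nigra and 39.0% in striatum.

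Of the highest members in nigra, the first was Kcnab2, the Kv beta 2 subunit, at 218 to 265 TPM (median 251). Kcnj10, the astrocytic Kir4.1 pore, followed at 232 to 271 TPM (median 243) and overlapped it. Below them came Kcnc1, encoding the Kv3.1 pore of fast-firing neurons, at 146 to 200.5 TPM (median 183).

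In striatum the highest member was Kcnip2, the Kv4 partner KChIP2, at 268 to 409 TPM (median 332). Kcnab1, the Kv beta 1 subunit, ranged from 189 to 398 TPM (median 240.1) and overlapped it. Kcnab2 at 171 to 219 TPM (median 183) and Kcnj4, the inward rectifier Kir2.3, at 130 to 181 TPM (median 164) overlapped in part. Kcnab2 was among the 5 highest in both tissues.

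The share of each role also differed between the tissues. The 15 voltage-gated pores of the Kv1 to Kv4 families held 30.0% of the family's TPM in nigra and 15.4% in striatum, and inward rectifiers held 16.8% in nigra and 12.7% in striatum. Auxiliary subunits held 25.8% in nigra and 35.5% in striatum, Kv7 pores 6.17% and 9.76%, and the EAG, ERG and ELK pores 3.38% and 6.60%. Silent subunits held 2.62% in nigra and 3.89% in striatum, and calcium- and sodium-activated pores 6.84% and 7.84%. K2P leak channels held 8.39% in nigra and 8.33% in striatum. These shares are descriptions, with no test.

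**Figure D1:**
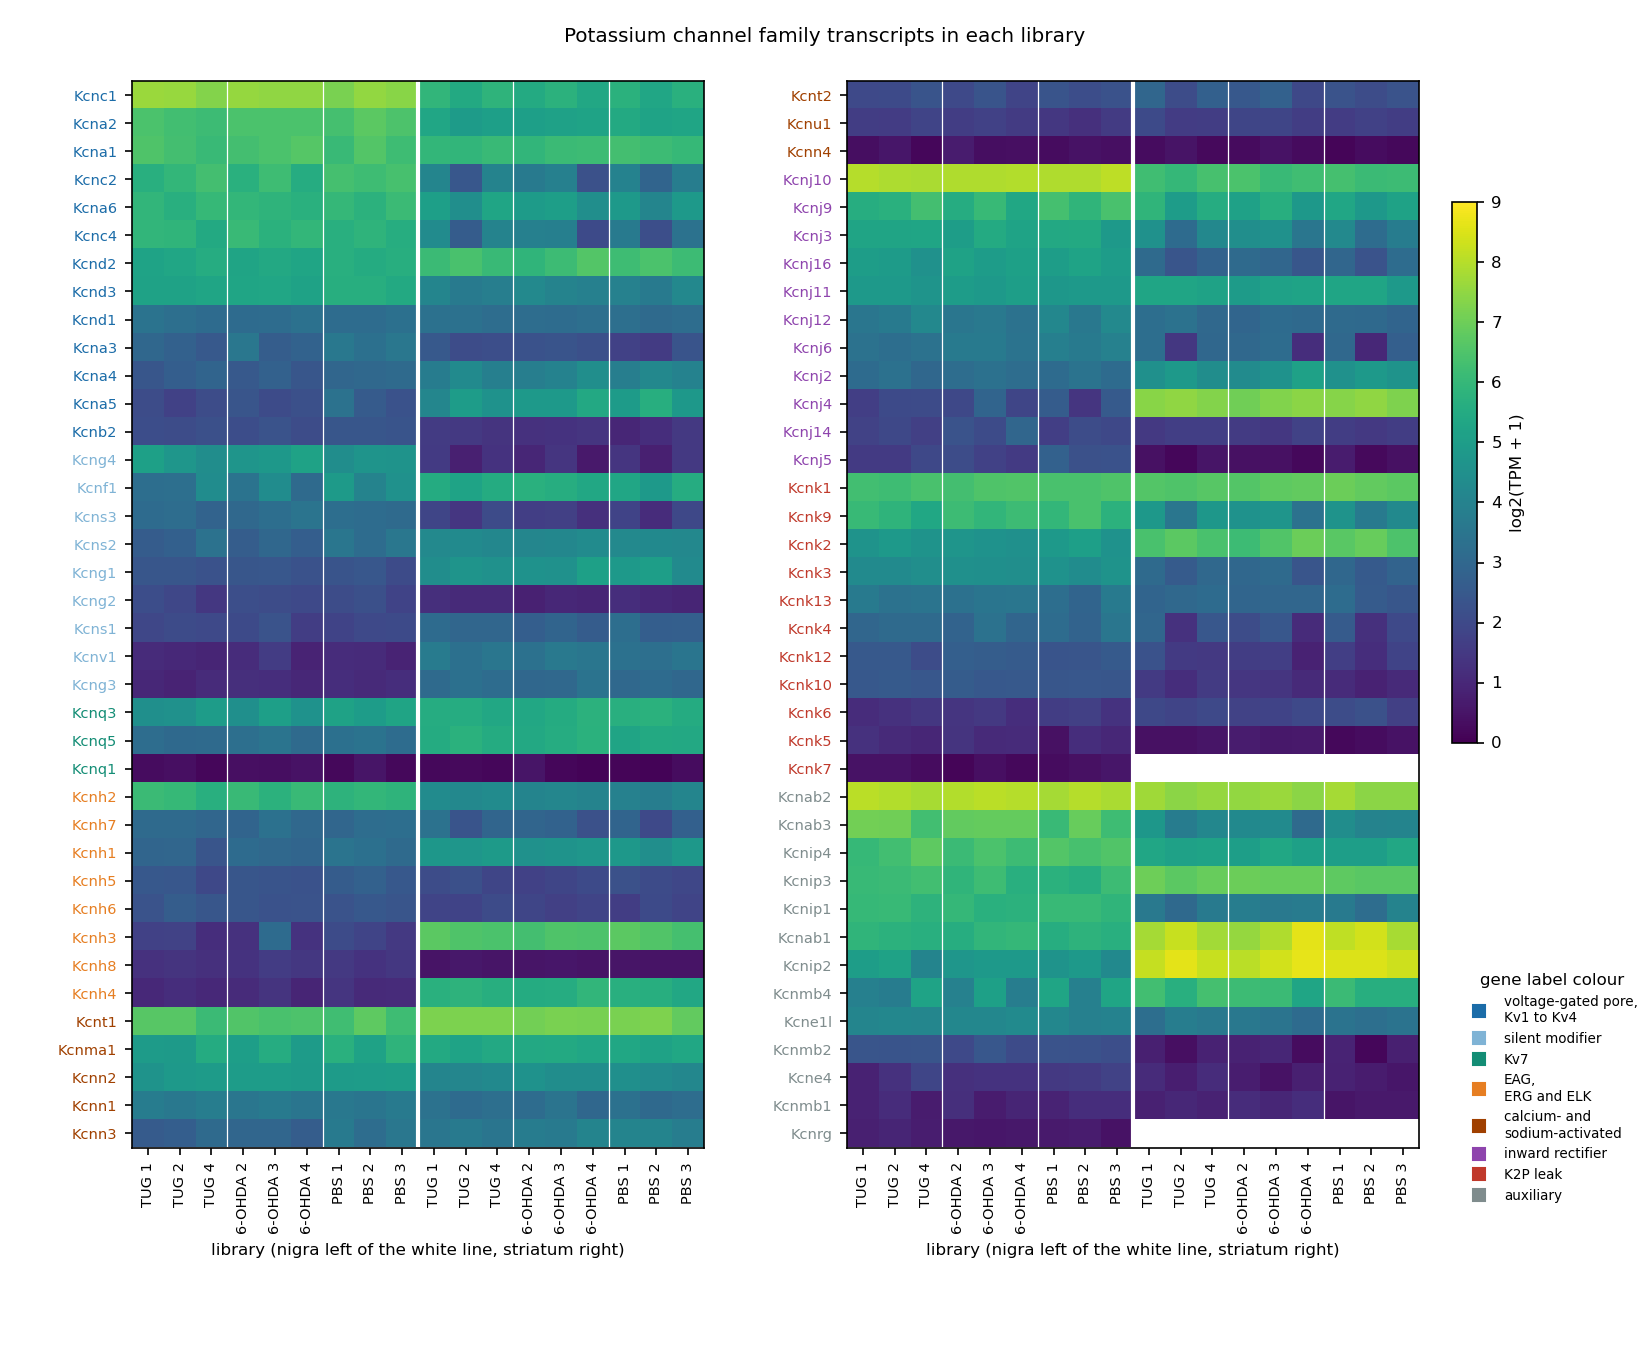
Heat map of log2(TPM + 1) for the members shown (rows, label colour by role) in each library (columns; nigra left and striatum right of the thick white line, each in the order TUG469 plus 6-OHDA, 6-OHDA and PBS). Rows such as Kcnip2, Kcnj4 and Kcnh4 are brighter in all striatal columns than in any nigral one, and blank cells mark the 2 members not listed for striatum.

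To see which channels set the tissues apart without a lesion, nigra was compared with striatum in PBS mice. Nigra had more transcript of Kv3 pores, of the GIRK pores Kcnj3, Kcnj5 and Kcnj9, of Kir4.1 and of most K2P leak channels, and striatum had more of Kir2.3, of the ELK pores Kcnh3 and Kcnh4, of KChIP2 and of most silent subunits. Of 78 members, 67 differed, 37 higher and 30 lower in nigra (edgeR's quasi-likelihood test, 3 libraries a tissue, Benjamini-Hochberg adjustment over 18749 genes, adjusted p under 0.05). Much of the transcriptome differed too: 55.8% of all genes passed the same test, 28.5% higher and 27.3% lower in nigra. The median log2 difference was 0.38 over the members and 0.01 over all genes.

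From 60 to 64 members passed when 1 PBS library was left out, the fewest being 31 higher and 29 lower without striatal PBS replicate 2. On the log2(TPM + 1) scale with limma, the median of all genes shifted up by 0.22, and the members split into 41 higher and 26 lower, against 8783 genes higher and 2685 lower overall. On that scale 66 of the 67 members kept their direction, Kcnd1 being the exception. Direction and call were both kept by 63, all but Kcnd1, Kcnu1, Kcnmb4 and Kcnf1. With RLE size factors, another scaling, 66 kept both, all but Kcnh5. With a trend with transcript length removed 64 kept both, all but Kcnk4, Kcnmb4 and Kcnh5. With DESeq2 all 67 did. Values below are CPM (counts scaled to library size, here over all 18 libraries), with the log2 difference of nigra over striatum and its standard error (SE).

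**Figure D2:**
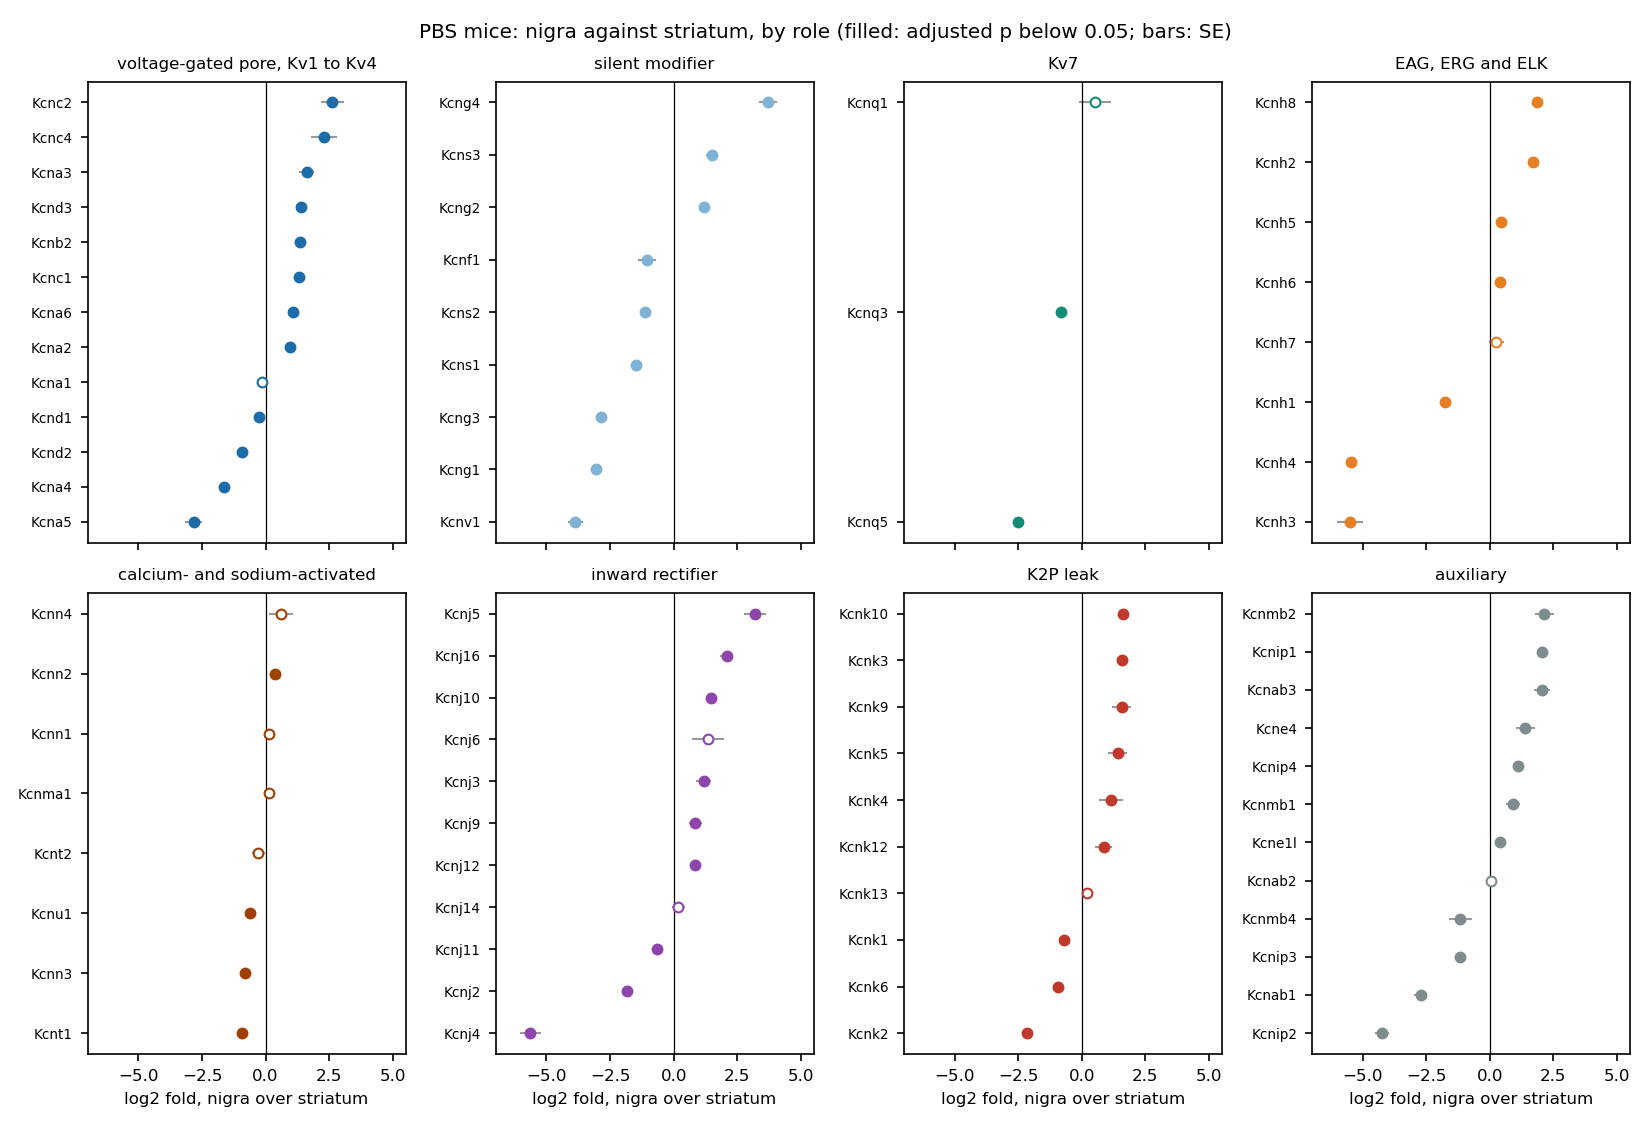
Log2 fold of nigra over striatum in PBS mice (horizontal axis, with SE bars) for the members shown, 1 panel per role. Filled points passed the adjusted p threshold of 0.05 and open points did not; the silent modifiers run from -3.87 for Kcnv1 to 3.71 for Kcng4.

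Among the 15 voltage-gated pores of the Kv1 to Kv4 families, 9 were higher in nigra, 5 were lower and 1 did not pass. The Kv3 genes Kcnc1, Kcnc2 and Kcnc4, whose channels let neurons fire fast, were higher in nigra. Kcnc2, encoding Kv3.2, had 186, 167 and 204 CPM in nigra, against 38.6, 16.9 and 34.6 CPM in striatum (log2 2.62, SE 0.46, adjusted p 0.000144). Kcnc4 averaged 95.6 ± 11.3 CPM in nigra and 19.5 ± 9.09 CPM in striatum (log2 2.29, SE 0.50, adjusted p 0.00105), with SD over 3 libraries here and below. Both genes were lowest in striatal replicate 2, the PBS library with the lowest cortical marker sum. Kcnc1 was 1.29 higher on the log2 scale. A list of 4 genes named for fast-spiking interneurons (Pvalb, Kit, Gad1 and Lhx6) was not shown here to be specific to those cells. It summed to 484 to 609 TPM in nigra and 359 to 499 TPM in striatum over all libraries. Its part in the Kv3 levels was not tested.

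The Kv1 and Kv4 families split between the tissues. Kcna2, an axonal Kv1 pore, averaged 393 ± 46.5 CPM in nigra and 205 ± 14.3 CPM in striatum (log2 0.94, SE 0.10, adjusted p 1.14e-06). Kcna5 averaged 6.76 ± 3.27 CPM in nigra and 47.7 ± 16.9 CPM in striatum (log2 -2.82, SE 0.33, adjusted p 2.62e-06), and nigral PBS replicate 1 held more of it than the other nigral PBS libraries. Kcnd3, the Kv4.3 pore of A-type current, averaged 133 ± 8.13 CPM in nigra and 50.3 ± 8.61 CPM in striatum (log2 1.40, SE 0.12, adjusted p 8.44e-08), whereas Kcnd2, the Kv4.2 pore, went the other way at 95.9 ± 6.08 CPM in nigra and 183 ± 23.0 CPM in striatum (log2 -0.93, SE 0.16, adjusted p 9.83e-05). Kcnb2, a delayed rectifier pore, was 1.35 higher in nigra on the log2 scale. Kcna3 and Kcna6 were 1.61 and 1.09 higher, and Kcna4 and Kcnd1 had log2 differences of -1.64 and -0.26. Kcna1, the Kv1.1 pore, did not pass (log2 -0.14, SE 0.13, adjusted p 0.397).

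All 9 silent subunits, which act by joining Kv2 pores, differed: 3 were higher and 6 lower in nigra. Kcng4 showed the largest positive difference of the family. It had 28.7, 33.1 and 33.7 CPM in nigra, against 2.76, 1.33 and 3.07 CPM in striatum (log2 3.71, SE 0.36, adjusted p 3.27e-07). Kcns3 was 1.52 and Kcng2 1.21 higher on the log2 scale. Kcnv1 averaged 4.15 ± 0.563 CPM in nigra and 60.6 ± 5.97 CPM in striatum (log2 -3.87, SE 0.29, adjusted p 1.77e-08), Kcng1 averaged 5.99 ± 0.963 CPM in nigra and 49.7 ± 14.1 CPM in striatum (log2 -3.05, SE 0.21, adjusted p 5.87e-09) and Kcng3 averaged 6.92 ± 0.542 CPM in nigra and 50.8 ± 4.65 CPM in striatum (log2 -2.88, SE 0.15, adjusted p 3.15e-10). The lowest striatal value in PBS mice of each of these 3 genes was several times its highest nigral value. Kcns1, Kcns2 and Kcnf1 were lower in nigra by smaller amounts, with log2 differences of -1.47, -1.14 and -1.06.

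Among the Kv7 pores, which carry slow voltage-gated currents, Kcnq5 averaged 23.2 ± 1.79 CPM in nigra and 131 ± 10.0 CPM in striatum (log2 -2.50, SE 0.12, adjusted p 2.05e-10). Kcnq3 was lower by a smaller amount, with a log2 difference of -0.81. Kcnq1, at 4 to 29 reads per library, did not pass, and its reads cannot be told apart from those of the overlapping antisense gene Kcnq1ot1.

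The 8 EAG, ERG and ELK pores held 4 higher and 3 lower members and 1 that did not pass. Kcnh3, encoding the ELK pore Kv12.2, had 4.70, 3.79 and 2.65 CPM in nigra, against 183, 170.0 and 144 CPM in striatum (log2 -5.48, SE 0.51, adjusted p 2.09e-07). Kcnh4, encoding Kv12.3, had 2.33, 1.51 and 1.64 CPM in nigra, against 84.2, 86.2 and 69.6 CPM in striatum (log2 -5.45, SE 0.19, adjusted p 2.7e-11). Their relative Kcnh8 differed in the other direction at a low level, averaging 2.72 ± 0.314 CPM in nigra and 0.762 ± 0.0195 CPM in striatum (log2 1.83, SE 0.17, adjusted p 1.84e-07). Kcnh2, the ERG1 pore, averaged 89.6 ± 3.71 CPM in nigra and 27.8 ± 2.56 CPM in striatum (log2 1.69, SE 0.11, adjusted p 6.16e-09), while Kcnh1, the EAG1 pore, was lower in nigra with a log2 difference of -1.78. Kcnh5 and Kcnh6 were 0.42 and 0.39 higher, and Kcnh7 did not pass.

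The calcium- and sodium-activated role, grouped by gene symbol with Kcnu1 included whatever its gating, had the smallest share of calls among the roles. Of its 8 members 1 was higher, 3 were lower and 4 did not pass. Kcnt1, a sodium-activated pore, had a log2 difference of -0.92, and Kcnn3, the SK3 pore known for pacing dopamine neurons, one of -0.80. Kcnu1 was also lower (-0.61), and Kcnn2, the SK2 pore, was 0.37 higher. Kcnn1, Kcnn4 and Kcnt2 did not pass. Kcnma1, the BK pore, had 228, 156 and 256 CPM in nigra, against 201, 183 and 203 CPM in striatum (log2 0.13, SE 0.19, adjusted p 0.601). Its sign turned when nigral PBS replicate 3 was left out (log2 -0.03), when the length trend was removed (log2 -0.03) and with the cortical marker sum as a covariate (log2 -0.03), none of them past the threshold.

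Among 11 inward rectifiers, 6 were higher in nigra, 3 were lower and 2 did not pass. Kcnj4, encoding Kir2.3, showed the largest negative difference of the family. It had 5.91, 2.22 and 5.52 CPM in nigra, against 221, 239 and 216 CPM in striatum (log2 -5.63, SE 0.41, adjusted p 1.2e-08). Kcnj2, encoding Kir2.1, averaged 17.0 ± 1.85 CPM in nigra and 61.4 ± 8.65 CPM in striatum (log2 -1.85, SE 0.19, adjusted p 6.34e-07), and Kcnj11, the KATP pore, had a log2 difference of -0.66. On the nigral side stood Kcnj5, the GIRK4 pore, which had 10.2, 6.11 and 6.34 CPM in nigra, against 1.33, 0.364 and 0.727 CPM in striatum (log2 3.19, SE 0.43, adjusted p 1.04e-05). Kcnj10 averaged 508 ± 39.8 CPM in nigra and 181 ± 11.6 CPM in striatum (log2 1.49, SE 0.10, adjusted p 6.62e-09) and its partner Kcnj16, encoding Kir5.1, averaged 44.4 ± 3.58 CPM in nigra and 10.4 ± 3.49 CPM in striatum (log2 2.08, SE 0.24, adjusted p 2.66e-06). Astrocyte markers (5 genes) summed to 891 to 1069 TPM in nigra and 816 to 1007 TPM in striatum. Oligodendrocyte markers (5 genes) did not overlap, at 9443 to 13819 TPM in nigra and 5057 to 8754 TPM in striatum. Oligodendrocyte precursor markers (3 genes: Pdgfra, Cspg4 and Olig1) did not overlap either, at 217 to 268 TPM in nigra and 130 to 173 TPM in striatum. The part of these cell types in the Kcnj10 and Kcnj16 levels was not tested. The GIRK pores Kcnj3 and Kcnj9 and the Kir2.2 pore Kcnj12 were 1.17, 0.86 and 0.82 higher on the log2 scale, and Kcnj14 did not pass.

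Kcnj6, the GIRK2 pore known for marking nigral dopamine neurons, had 87.1, 70.7 and 93.2 CPM in nigra, against 51.0, 7.98 and 40.4 CPM in striatum (log2 1.33, SE 0.63, adjusted p 0.0844) and did not pass. The striatal library at 7.98 CPM was replicate 2. Without it the log2 difference was 0.87 (adjusted p 0.247), and with the cortical marker sum as a covariate, an alternative added after the data were seen, it was 1.25 (adjusted p 1.55e-08). The difference also passed with limma on log2(TPM + 1) (1.60, adjusted p 0.0197).

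**Figure D3:**
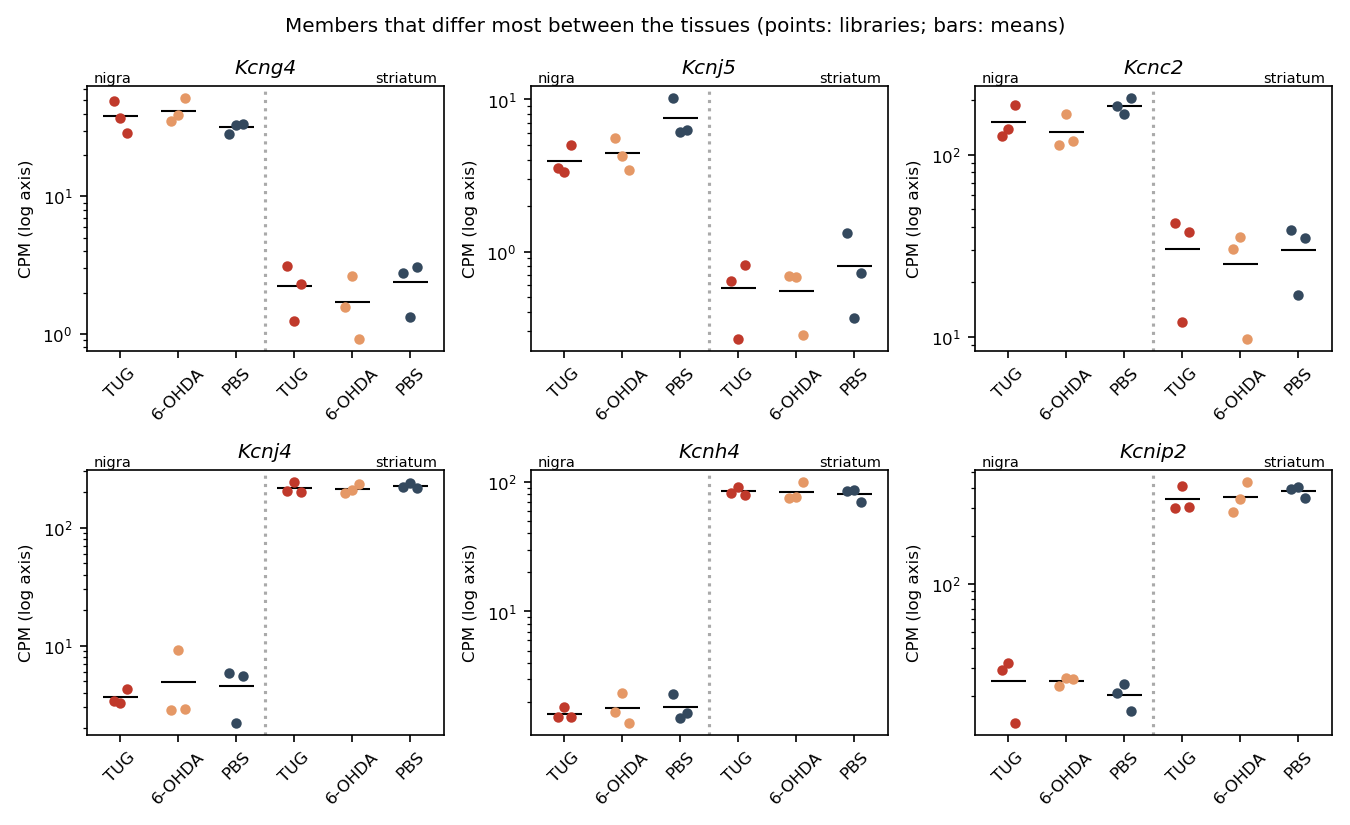
CPM on a log axis for 6 members in each library (points, with group means as bars), nigral groups left and striatal groups right of the dotted line, with TUG standing for TUG469 plus 6-OHDA. Kcng4, Kcnj5 and Kcnc2 (upper row) lie higher in nigra, Kcnj4, Kcnh4 and Kcnip2 (lower row) lie lower in nigra, and the 9 nigral and 9 striatal libraries do not overlap for any of the 6.

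The K2P leak channels, which set resting conductance, held 6 higher and 3 lower members of 10, and 1 that did not pass. Kcnk9 and Kcnk3, encoding the TASK3 and TASK1 pores, were 1.57 and 1.58 higher in nigra on the log2 scale, and Kcnk10, Kcnk5, Kcnk4 and Kcnk12 were 1.61, 1.41, 1.15 and 0.85 higher. Kcnk2, the mechanosensitive TREK1 pore, averaged 36.1 ± 4.94 CPM in nigra and 162 ± 26.9 CPM in striatum (log2 -2.17, SE 0.18, adjusted p 6.34e-08), and Kcnk1, encoding TWIK1, and Kcnk6 had log2 differences of -0.69 and -0.93. Kcnk13 did not pass (log2 0.21, SE 0.18, adjusted p 0.346), and its sign turned without nigral PBS replicate 3 (log2 -0.09). It passed without nigral PBS replicate 2 (log2 0.41, adjusted p 0.0460) and with limma on log2(TPM + 1) (log2 0.56, adjusted p 0.0185).

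The 12 auxiliary subunits tested held 7 higher and 4 lower members and 1 that did not pass. The KChIPs, calcium-binding partners of Kv4 pores, divided: Kcnip2 had 20.8, 23.9 and 16.1 CPM in nigra, against 389, 406 and 346 CPM in striatum (log2 -4.23, SE 0.27, adjusted p 3.44e-09), and Kcnip3 had a log2 difference of -1.16. Kcnip1 averaged 49.0 ± 3.08 CPM in nigra and 11.7 ± 2.96 CPM in striatum (log2 2.06, SE 0.16, adjusted p 2.81e-08), and Kcnip4 was 1.09 higher. The Kv beta subunits divided as well, with Kcnab1 at 68.8 ± 4.39 CPM in nigra and 454 ± 95.6 CPM in striatum (log2 -2.72, SE 0.24, adjusted p 1.05e-07) and Kcnab3 at 80.7 ± 24.8 CPM in nigra and 19.6 ± 2.7 CPM in striatum (log2 2.04, SE 0.32, adjusted p 4.72e-05). Kcnab2 did not pass (log2 0.06, SE 0.10, adjusted p 0.623). Of the BK beta subunits, Kcnmb2 averaged 3.89 ± 0.162 CPM in nigra and 0.874 ± 0.330 CPM in striatum (log2 2.13, SE 0.37, adjusted p 0.000154), and Kcnmb4 was lower in nigra (log2 -1.16, SE 0.45, adjusted p 0.0366). The Kcnmb4 call was lost without nigral PBS replicate 2 (adjusted p 0.143), striatal PBS replicate 1 (0.108) or striatal PBS replicate 2 (0.0524), with limma on log2(TPM + 1) (0.0703), and with the length trend removed (0.0525). Kcnmb1, Kcne4 and Kcne1l were 0.92, 1.40 and 0.40 higher.

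The differences recurred in the other mice. In TUG469 plus 6-OHDA mice 60 members passed, 31 higher and 29 lower in nigra (54.1% of all genes passed), and in 6-OHDA mice 64 members passed, 34 higher and 30 lower (56.0% of all genes). These 2 comparisons were added after the data were seen. Of the 67 members called in PBS mice, 57 were called in the same direction in TUG469 plus 6-OHDA mice and 61 in 6-OHDA mice, and 56 in both. Kcnmb1, a BK beta subunit at about 1 TPM, was the 1 called member whose direction turned. Across treatments, 52 of 78 members had 9 nigral values that did not overlap the 9 striatal ones, 25 above and 27 below, and 36.2% of all genes were separated in this way. Kcna1, Kcnh7, Kcnj6, Kcnma1, Kcnn4 and Kcnq1 were called in none of the 3 groups of mice.

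Some members moved with the cortical marker sum between libraries of 1 tissue. In striatum Kcnj6 had 1.72 TPM in TUG469 plus 6-OHDA replicate 2, 1.25 TPM in 6-OHDA replicate 4 and 0.991 TPM in PBS replicate 2, the 3 libraries with the lowest cortical sums, against 5.54 to 8.55 TPM in the others. Kcnc2 had 4.49, 3.74 and 6.49 TPM in those libraries, against at least 11.7 TPM in the others. In nigra Kcnmb4 had 36.3 TPM in TUG469 plus 6-OHDA replicate 4, 33.9 TPM in 6-OHDA replicate 3, and 38.3 and 38.4 TPM in PBS replicates 1 and 3, against 12.7 to 14.5 TPM in the others. Kcnf1, a silent subunit, was also highest in those 4 nigral libraries, at 19.9 to 28.9 TPM against 7.67 to 15.2 TPM. The part of cortical tissue in these levels was not tested.

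**Figure D4:**
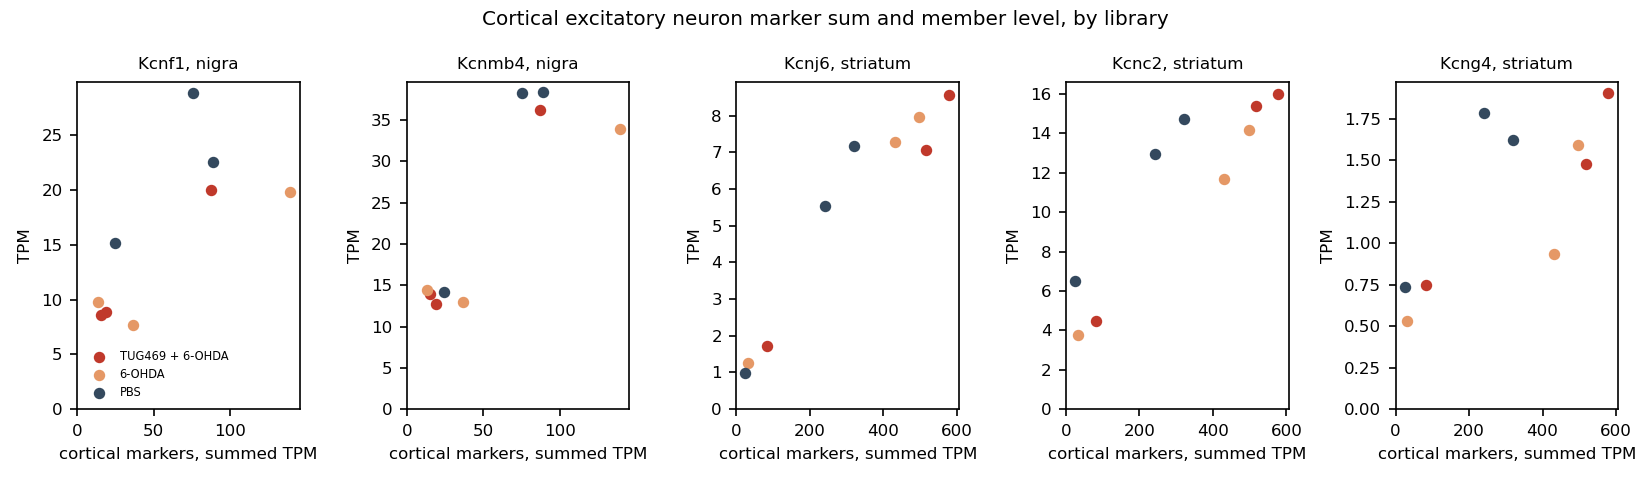
Level of 5 members in TPM (vertical axes) against the summed TPM of 5 cortical excitatory neuron genes (horizontal axes), 1 point per library, coloured by group. In nigra the 4 libraries with the highest marker sums hold 33.9 to 38.4 TPM of Kcnmb4, and in striatum the 3 libraries with the lowest sums hold 0.991 to 1.72 TPM of Kcnj6.

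Partners of these channels that are not family members were followed as a fixed list of 24 genes, of which 22 were tested. In PBS mice 15 were higher and 2 lower in nigra, with a median log2 difference of 0.45, against 28.5% higher, 27.3% lower and a median of 0.01 over all genes. The pacemaker channels Hcn4 (log2 2.46, SE 0.18, adjusted p 1.81e-08) and Hcn3 (log2 1.15, SE 0.18, adjusted p 5.72e-05) and the Kv4 partner Dpp10 (log2 1.16, SE 0.13, adjusted p 2.33e-06) were higher. The Kv1-associated protein Lgi1 (log2 -0.53, SE 0.09, adjusted p 0.000133) was lower. In the 6 treatment comparisons within a tissue, 0 of 22 passed by edgeR, and 0 to 5 had an unadjusted p under 0.05.

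Nigra of TUG469 plus 6-OHDA mice was compared with nigra of PBS mice to see what the lesion and drug together changed. Of 80 members 1 passed, Kcnd3, which was lower, while 1.85% of all 19686 genes passed (edgeR, Benjamini-Hochberg adjustment), and 15 members had an unadjusted p under 0.05, which is 18.8% of the members against 19.7% of all genes. DESeq2 called 8 of the 76 members to which it gave an adjusted p, all lower and Kcnd3 among them, and called 10.4% of all genes. Kcnd3 (chromosome 3, 105451890 to 105674002, plus strand) encodes Kv4.3, the A-type pore that slows pacemaking in dopamine neurons. On the CPM scale of the nigral libraries alone, it had 109.9, 109 and 118 CPM in the TUG469 plus 6-OHDA libraries, 113, 120.1 and 108 CPM in the libraries labelled 6-OHDA and 146, 143 and 130.0 CPM in the PBS libraries. Each TUG469 plus 6-OHDA and 6-OHDA library lay below each PBS library. Kcnd3 fell by 0.32 on the log2 scale in TUG469 plus 6-OHDA mice (SE 0.06, adjusted p 0.0413). The call was lost without PBS replicate 1 (adjusted p 0.194), PBS replicate 2 (0.0902), TUG469 plus 6-OHDA replicate 1 (0.116) or TUG469 plus 6-OHDA replicate 2 (0.168). It was also lost when a trend with transcript length was removed, where the log2 difference was -0.18 (adjusted p 0.164), and when only the groups compared were fitted (0.0867). In nigra Kcnd3 lay at length percentile 93.0, and the members had a median length percentile of 70.3.

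Of the members known from dopamine neurons, 2 had the next lowest p-values and failed the correction by edgeR. Both passed with DESeq2 (adjusted p 0.00145 for Kcnj6 and 0.00221 for Kcnn3). They also passed with edgeR when the cortical marker sum was a covariate, an alternative added after the data were seen. There the log2 differences were -0.41 for Kcnj6 and -0.60 for Kcnn3 (adjusted p 0.0493 for each). Kcnj6, encoding GIRK2, had 66.6, 58.8 and 66.4 CPM in the TUG469 plus 6-OHDA libraries, 79.6, 82.7 and 70.0 CPM in the libraries labelled 6-OHDA and 91.9, 74.4 and 98.3 CPM in the PBS libraries. The TUG469 plus 6-OHDA values all lay below the PBS values (log2 -0.46, SE 0.10, adjusted p 0.0547). The difference passed without PBS replicate 2 (adjusted p 0.0324), but not without any other single library, where the adjusted p was up to 0.209, and removing the length trend left a log2 difference of -0.25 (adjusted p 0.236). Kcnn3, encoding SK3, had 15.4, 16.8 and 23.7 CPM in the TUG469 plus 6-OHDA libraries, 20.3, 21.3 and 16.4 CPM in the libraries labelled 6-OHDA and 35.0, 24.1 and 32.9 CPM in the PBS libraries. Its PBS libraries were the highest, PBS replicate 2 only just above TUG469 plus 6-OHDA replicate 4 (log2 -0.72, SE 0.18, adjusted p 0.0744). Without that TUG469 plus 6-OHDA library the difference passed (adjusted p 0.0456), but not without any other single library, where the adjusted p was up to 0.249. Kcnj5, encoding GIRK4, had 3.70, 3.53 and 5.36 CPM in the TUG469 plus 6-OHDA libraries, 5.89, 4.46 and 3.62 CPM in the libraries labelled 6-OHDA and 10.8, 6.43 and 6.69 CPM in the PBS libraries (log2 -0.92, SE 0.25, adjusted p 0.0888). These values stand beside dopamine neuron marker sums that were lower in the TUG469 plus 6-OHDA libraries than in the PBS libraries. In the libraries labelled 6-OHDA those sums were higher than in the PBS libraries. Summed astrocyte and oligodendrocyte precursor markers also separated both 6-OHDA groups from PBS. The 5 astrocyte genes summed to 891 to 941 TPM in the TUG469 plus 6-OHDA libraries, 907 to 1006 TPM in the libraries labelled 6-OHDA and 1009 to 1069 TPM in the PBS libraries. The 3 precursor genes summed to 249.96 to 257 TPM in the TUG469 plus 6-OHDA libraries, 246 to 268 TPM in the libraries labelled 6-OHDA and 217 to 238 TPM in the PBS libraries. Thalamic neuron sums also differed in range, with overlap. The 5 genes summed to 565 to 942 TPM in the TUG469 plus 6-OHDA libraries and 747 to 989 TPM in the PBS libraries. In the libraries labelled 6-OHDA they summed to 572 to 770 TPM. Cortical sums overlapped too, at 15.3 to 87.2 TPM in the TUG469 plus 6-OHDA libraries and 24.5 to 88.7 TPM in the PBS libraries. In the libraries labelled 6-OHDA the cortical sums were 13.2 to 139 TPM. Within each group, the libraries with cortical sums of 75.5 TPM or more held more Kcnn3 than the others. For Kcnd3, Kcnj6 and Kcnj5 this did not hold in every group. The part of any of these cell types in the channel levels was not tested.

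Other channel genes known from dopamine neurons had smaller or opposite differences. Kcnj11 (log2 0.04, adjusted p 0.789), Kcns3 (log2 0.02, adjusted p 0.938) and Kcnip3, the KChIP3 partner of Kv4.3 (log2 0.33, adjusted p 0.287), did not pass in TUG469 plus 6-OHDA against PBS nigra. Among positive differences the smallest p-values were those of Kcnu1 (log2 0.41, SE 0.17, adjusted p 0.218) and Kcnrg (log2 0.63, SE 0.26, adjusted p 0.222), both at low levels. Over the 80 members the median log2 difference was -0.11, with 31 above 0, against 0.01 over all genes. Groups did not overlap for 17 members, and for 24.0% of all genes.

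**Figure D5:**
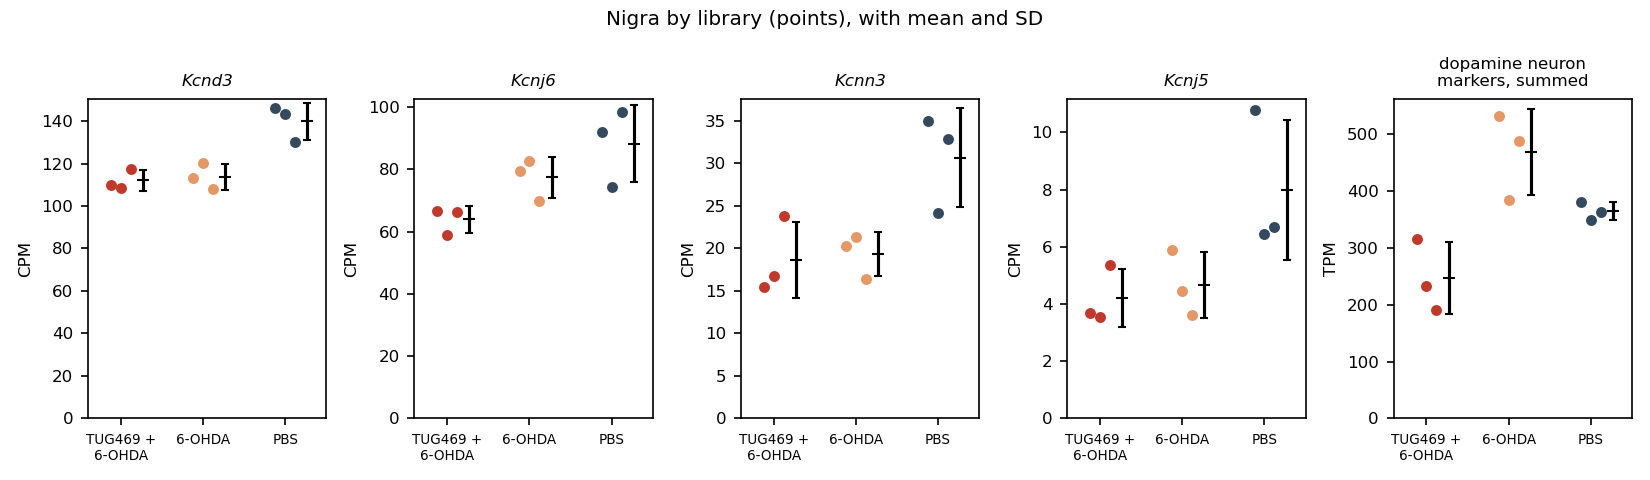
CPM of Kcnd3, Kcnj6, Kcnn3 and Kcnj5 and summed TPM of 8 dopamine neuron marker genes in each nigral library (points), with mean and SD beside them, in the order TUG469 plus 6-OHDA, 6-OHDA and PBS. The 4 channel genes are highest in PBS nigra on average, while the marker sum is highest in the libraries labelled 6-OHDA, at 385 to 532 TPM.

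In nigra labelled 6-OHDA against PBS, 0 of 80 members passed by edgeR, where 0.00508% of all genes did, and 14 members had an unadjusted p under 0.05, which is 17.5% of the members against 14.3% of all genes. DESeq2 called 2 of 76 members, Kcnd3 and Kcnn3, both lower, and called 2.91% of all genes. By edgeR the lowest p-values were those of Kcnd3 (log2 -0.30, SE 0.06, adjusted p 0.170), Kcnn3 (log2 -0.67, SE 0.18, adjusted p 0.208) and Kcnj5 (log2 -0.77, SE 0.25, adjusted p 0.248). In each of the 3 the 6-OHDA libraries lay below the PBS libraries, which are the same libraries as in the comparison above. Positive differences that failed the correction included Kcnj14, an inward rectifier (log2 0.80, SE 0.27, adjusted p 0.262), Kcnj11 (log2 0.19, SE 0.07, adjusted p 0.301) and Kcne1l, a KCNE subunit (log2 0.24, SE 0.10, adjusted p 0.313). Kcnj14 had 2.66, 3.00 and 2.47 CPM in the TUG469 plus 6-OHDA libraries, 4.11, 3.34 and 7.37 CPM in the libraries labelled 6-OHDA and 2.27, 3.30 and 2.97 CPM in the PBS libraries, with 6-OHDA replicate 4 the highest.

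Setting TUG469 plus 6-OHDA nigra against nigra labelled 6-OHDA, 0 of 80 members passed by edgeR, 5 had an unadjusted p under 0.05 (6.25% of the members, against 8.20% of all genes) and DESeq2 called 0. Of all genes, 0.00508% passed by edgeR and 0.600% by DESeq2. Kcnn2, the SK2 pore, was the member with the lowest p (log2 -0.24, SE 0.06, adjusted p 0.412), with 34.2, 39.2 and 36.7 CPM in the TUG469 plus 6-OHDA libraries, 43.6, 44.3 and 41.9 CPM in the libraries labelled 6-OHDA and 40.8, 42.3 and 44.7 CPM in the PBS libraries. Kcnj14 (log2 -0.87, SE 0.27, adjusted p 0.524), Kcnj6 (log2 -0.28, SE 0.10, adjusted p 0.564) and Kcnrg (log2 0.69, SE 0.26, adjusted p 0.564) also had groups that did not overlap and failed the correction. Kcnd3 and Kcnn3 had log2 differences of -0.02 and -0.05. Such groups without overlap were found for 6 of 80 members, and for 14.4% of all genes.

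In striatum no member passed in any treatment comparison by edgeR. In TUG469 plus 6-OHDA against PBS striatum 0 of 78 members and 0% of all genes passed, and 9 members had an unadjusted p under 0.05 (11.5%, against 12.5% of all genes). DESeq2 called 1 member, Kcnn3, and 1.81% of all genes. Kcnn3 had 32.8, 37.4 and 31.3 CPM in the TUG469 plus 6-OHDA libraries, 39.4, 37.6 and 49.3 CPM in the libraries labelled 6-OHDA and 49.4, 52.1 and 42.8 CPM in the PBS libraries. The TUG469 plus 6-OHDA values lay below the others (log2 -0.51, SE 0.12, adjusted p 0.204 against PBS), as did those of Kcnn2 (log2 -0.35, SE 0.10, adjusted p 0.254). Kcnk1 (log2 -0.33, SE 0.08, adjusted p 0.223), Kcnh2 (log2 0.28, SE 0.08, adjusted p 0.253) and Kcnmb1 (log2 0.74, SE 0.22, adjusted p 0.263) also had groups that did not overlap and failed the correction. In this comparison groups did not overlap for 7 of 78 members, and for 18.5% of all genes.

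In striatum labelled 6-OHDA against PBS, 0 of 78 members and 0% of all genes passed by edgeR, and 3 members had an unadjusted p under 0.05 (3.85%, against 7.5% of all genes). DESeq2 called 1 member, Kcnmb1, and 0.871% of all genes. Kcnmb1, the BK beta 1 subunit known from smooth muscle, had 1.32, 1.76 and 1.35 CPM in the TUG469 plus 6-OHDA libraries, 2.09, 1.59 and 2.17 CPM in the libraries labelled 6-OHDA and 0.743, 0.957 and 0.956 CPM in the PBS libraries. The 6-OHDA and PBS libraries did not overlap (log2 1.14, SE 0.22, adjusted p 0.222). Beside it, 4 ependymal genes summed to 16.4 to 24.2 TPM in the TUG469 plus 6-OHDA libraries, 23.0 to 28.8 TPM in the libraries labelled 6-OHDA and 8.37 to 13.3 TPM in the PBS libraries of striatum. In striatum 5 endothelial and mural genes summed to 127 to 129 TPM in the TUG469 plus 6-OHDA libraries, 108 to 116 TPM in the libraries labelled 6-OHDA and 105 to 124 TPM in the PBS libraries. The part of these cell types in the Kcnmb1 level was not tested. Kcnk5, the TASK2 pore (log2 1.06, SE 0.33, adjusted p 0.460), and Kcna2 (log2 -0.22, SE 0.10, adjusted p 0.659) also had groups that did not overlap and failed the correction. Between these groups 5 of 78 members did not overlap, and 11.8% of all genes.

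For TUG469 plus 6-OHDA against 6-OHDA striatum, 0 of 78 members passed by edgeR, 4 had an unadjusted p under 0.05 (5.13%, against 7.49% of all genes) and DESeq2 called 0. Of all genes, 0.00523% passed by edgeR and 0.339% by DESeq2. Kcnh2 (log2 0.23, SE 0.08, adjusted p 0.584), Kcnn3 (log2 -0.31, SE 0.12, adjusted p 0.614) and Kcnn2 (log2 -0.24, SE 0.10, adjusted p 0.645) had the lowest p-values and groups that did not overlap. Absence of overlap was found for 8 of 78 members, and for 14.9% of all genes. None of the 6 members below, high in striatum, passed a treatment comparison in this tissue. Against PBS striatum, TUG469 plus 6-OHDA striatum had log2 differences of -0.06 for Kcnj4, 0.07 for Kcnh4, -0.17 for Kcnip2, -0.24 for Kcnab1, -0.12 for Kcnd2 and -0.16 for Kcnj2, with adjusted p-values between 0.722 and 0.844.

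Whether a treatment acted differently in nigra and striatum was tested as an interaction over all 18 libraries. For the 6-OHDA change against PBS, 0 of 78 members passed by edgeR, where 0.155% of all genes did, and 5 had an unadjusted p under 0.05 (6.41%, against 12.2% of all genes). DESeq2 called 0 members and 1.81% of all genes. The lowest p for the nigral change minus the striatal change was that of Kcnmb1 (log2 -1.37, SE 0.39, adjusted p 0.155), followed by Kcnj14 (log2 0.80, SE 0.34, adjusted p 0.351), Kcns2 (log2 -0.60, SE 0.26, adjusted p 0.369) and Kcna3 (log2 -0.86, SE 0.38, adjusted p 0.38). For the TUG469 change against 6-OHDA, 0 of 78 members and 0% of all genes passed by edgeR, 2 members had an unadjusted p under 0.05 (2.56%, against 3.73% of all genes), Kcnj14 (log2 -0.86, SE 0.34, adjusted p 1.000) and Kcnh1 (log2 -0.45, SE 0.20, adjusted p 1.000). DESeq2 called 0 members and 0.0206% of all genes.

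The authors' deposited table gives signed folds (a decrease is minus the inverse ratio) and adjusted p-values from a test that its headers do not name. It held more member calls than edgeR gave. Its numbers of calls were close to those of DESeq2 above on the same libraries, so they are not independent support. In the authors' deposited table, 7 members passed 0.05 in TUG469 plus 6-OHDA against PBS nigra, all 7 lower, beside 9.63% of all genes (1505). These were Kcnd3 (fold -1.25), Kcnj6 (fold -1.38), Kcnn3 (fold -1.64), Kcnj5 (fold -1.89), Kcnh1 (fold -1.44), Kcna3 (fold -1.70) and Kcna5 (fold -1.95) in the authors' deposited table. For nigra labelled 6-OHDA against PBS, the authors' deposited table held 2 members, Kcnd3 (fold -1.22) and Kcnn3 (fold -1.58), beside 3.07% of all genes. For striatum against PBS, the authors' deposited table held Kcnn3 in TUG469 plus 6-OHDA mice (fold -1.42, beside 1.74% of all genes) and Kcnmb1 in 6-OHDA mice (fold 2.21, beside 0.871% of all genes). As for the effect of TUG469 itself, the authors' deposited table held no member (0 in each tissue) when TUG469 plus 6-OHDA was set against 6-OHDA, beside 0.516% of all genes in nigra and 0.368% in striatum.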

How the data were processed

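Read counts and TPM per gene were deposited by the authors in 1 table per tissue, with signed fold changes (a decrease is minus the inverse ratio) and Benjamini-Hochberg adjusted p-values per the file headers, which do not name the test. The submitters' processing notes name FastQC 0.11.7, Trim Galore 0.38, STAR 2.7.3a, Cufflinks and GRCm38. The counting tool and its strand setting are not given in the sources used here, so overlapping antisense genes (Kcnq1 is one case) cannot be told apart. No column of other samples was found (0 in each table).

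Counts were fitted with edgeR 4.0.16 (R 4.3.3; TMM scaling, filterByExpr with a minimum count of 10 and total of 15, quasi-likelihood F test), per tissue over 9 libraries and, for tissue contrasts, over all 18. The Benjamini-Hochberg adjustment ran over all genes tested, with a threshold of 0.05. The fit was first run on counts simulated with the spread fitted here, with 200 genes changed. Those changes were larger than the Kcnd3 difference between treatments, so the run does not bear on differences of that size. Alternatives were DESeq2 1.42.0, limma 3.58.1 on log2(TPM + 1), other scaling, filtering, length and block settings, and leaving out libraries.

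Named genes were those past the threshold (the 10 largest differences per direction, at 1 TPM or more), otherwise up to 3 per direction with the lowest p and groups that did not overlap, the 5 highest per tissue, and a fixed list members known from basal ganglia or glia; other members were named to account for the family. Some genes within these rules are not reported here. Members and lists were chosen with earlier results of these data known. Coordinates and promoters are RefSeq's (GRCm38.p6); all 80 members had a gene entry and 57 a promoter.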

Additional observations from a re-analysis of the deposited data

How the results depend on the processing

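The potassium channel calls between tissues stayed within 1.5 times the stated counts under all settings run, and the 0 counts between treatments stayed 0 except as follows. DESeq2 called 8 members in TUG469 plus 6-OHDA against PBS nigra, where edgeR called 1, and called 2 in 6-OHDA against PBS nigra, 1 in 6-OHDA against PBS striatum and 1 in TUG469 plus 6-OHDA against PBS striatum. In TUG469 plus 6-OHDA against PBS nigra the count was 0 with the length trend removed, with only the groups compared and with the replicate block, alone or with the length trend removed, and 0 to 2 when 1 library was left out (0 without PBS replicate 1, TUG469 plus 6-OHDA replicate 1 or 2; 2 without PBS replicate 3 or TUG469 plus 6-OHDA replicate 4; without PBS replicate 2 the 1 call was Kcnj6 in place of Kcnd3). With the cortical marker sum as a covariate, added after the data were seen, it was 6, and the interaction of 6-OHDA with tissue had 2. The causes were not tested.

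The labels do not say whether nigral and striatal libraries of the same number share an animal, and the main fits treated all libraries as independent. Same-numbered libraries had correlations of deviations over 0.1 in 4 of 6 pairs in nigra (-0.28 to 0.46), 3 of 6 in striatum (-0.57 to 0.66) and 5 of 9 across tissues. With 3 libraries per group, these correlations cannot decide whether the libraries are paired. The replicate block left the other treatment counts at 0 and the PBS tissue count at 67; it ended the Kcnd3 call (adjusted p 0.131) and let Kcnj6 pass between tissues in PBS mice (log2 1.63, adjusted p 0.0388). Of 113 gene results, Kcnma1 reversed between tissues with the cortical covariate (-0.029), with the length trend removed (-0.030), also with the block (-0.060), and without nigral PBS replicate 3 (-0.026; range -0.026 to 0.309 when 1 library was left out), and Kcnk13 without nigral PBS replicate 3 (range -0.089 to 0.415); 13 of 1729 refits lost a call and 18 gained one. Kcnn4, Kcnq1 and Kcnk7, at 4 to 31 reads per library, are limited by depth.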
